A study of Homo sapiens with 7 samples.

Results

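MiR-886-3p and miR-886-5p were nearly absent from the microRNA profile of MDA-MB-435 lung derivative lines. MiR-886-3p gave no threshold cycle (Ct) in any of 7 lines, and miR-886-5p gave 1, a raw Ct of 36.12 in the polymetastatic L1Mic-R2 line 7T. The assays were taken by name, 2 of the 381 on each card, of which 377 were for human microRNAs. Ct is the PCR cycle in which a well first passes a fixed level of fluorescence, here 0.3 in every well. It runs on a log2 scale and falls as RNA increases. A well that never reaches that level is called Undetermined and is listed at a Ct of 40.

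Both names refer to short pieces of nc886, a small RNA that RNA polymerase III transcribes from VTRNA2-1. The pieces were first recorded as microRNAs, and the gene was later placed with the vault RNAs by sequence, although nc886 is not a part of the vault particle. The full-length RNA is known for binding and inhibiting PKR, a kinase that senses double-stranded RNA. VTRNA2-1 is imprinted, with expression from the paternal allele in most people, and the gene is methylated and silent in many tumors. In RefSeq (GRCh38.p14) the gene is on chromosome 5 between the protein-coding genes TGFBI and SMAD5, as a vault_RNA gene of 108 bases. RefSeq lists 4 vault_RNA genes, all on that chromosome, and the card held no assay for the others.

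Each line was read on 1 TaqMan MicroRNA Array A card by quantitative PCR. The oligometastatic group (labelled Ol-like) consisted of 4T, 3T and 8T (L1-R2, 3 lines), and the polymetastatic group (labelled Poly-like) of 2T, 3T, 7T and 8T (L1Mic-R2, 4 lines). All descend from MDA-MB-435-GFP, an established human tumor cell line that stably carries green fluorescent protein, and none received a treatment. The L1-R2 lines came from lungs of oligometastatic mice injected with L1-R1 cells, themselves grown from lung macrometastases, and the L1Mic-R2 lines from lungs of polymetastatic mice injected with L1Mic-R1 cells, grown from lung tissue free of macrometastases in the same animal. The hosts were athymic female mice, each line came from the lung of a distinct mouse, and tumor cells were purified with G418. Each group therefore rests on a single first-round line. The lines stem from the second passage through mice, which were matched for age, and the age itself is not given in the sources used here. The L1-R2 lines were on cards 1 to 3 and the L1Mic-R2 lines on cards 4 to 7, so that card order and group cannot be told apart.

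The small RNAs that serve as controls were read on every card. U6, which is also a product of RNA polymerase III, had a raw Ct of 15.97 (4T), 16.60 (3T) and 16.39 (8T) for L1-R2, against 16.36 (2T), 16.22 (3T), 16.15 (7T) and 16.77 (8T) for L1Mic-R2. The groups overlapped, and the 7 cards spanned 0.80 cycles. RNU44 and RNU48, which guide chemical modification of ribosomal RNA, were at 23.67 to 25.97 and 18.81 to 20.97. The plant microRNA ath-miR159a, which human cells lack, was Undetermined on all 7 cards. Between 171 and 197 of the 377 microRNAs gave a Ct in each line.

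MiR-886-3p was Undetermined in every line of both groups, that is in 4T, 3T and 8T of L1-R2 as well as 2T, 3T, 7T and 8T of L1Mic-R2. With 0 of 7 lines, the exact (Clopper-Pearson) 95% interval of the share of lines with a Ct reached 41.0%, and 3 counts of 7 would allow 42.9%. These limits, and the exact limits given below by group, take the lines as independent, although each group descends from a single first-round line. MiR-886-3p thus belonged to the 138 microRNAs, 36.6% of 377, that had a Ct on no card. An Undetermined well sets only a limit, since RNA too scarce to cross the threshold within the run would be read in the same way. That limit was at least 23.23 cycles after U6, on the card of L1Mic-R2 line 8T, and at least 24.03 cycles after U6 on that of L1-R2 line 4T.

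MiR-886-5p was Undetermined in 4T, 3T and 8T of L1-R2 as well as 2T, 3T and 8T of L1Mic-R2, while line 7T of L1Mic-R2 had a raw Ct of 36.12. The group with the single Ct also held 3 lines that were Undetermined, so that the groups overlapped. In line 7T the assay came 19.98 cycles after U6, against at least 23.23 cycles in each of the other 6 lines. The gap to the nearest of them was at least 3.25 cycles with U6, 3.20 with RNU44 and 2.98 with RNU48 as the reference. This Ct was measured in 1 well of 1 card and has no repeat. On the same card 160 microRNAs had an earlier Ct, of the 183 that gave any.

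**Figure D1:**
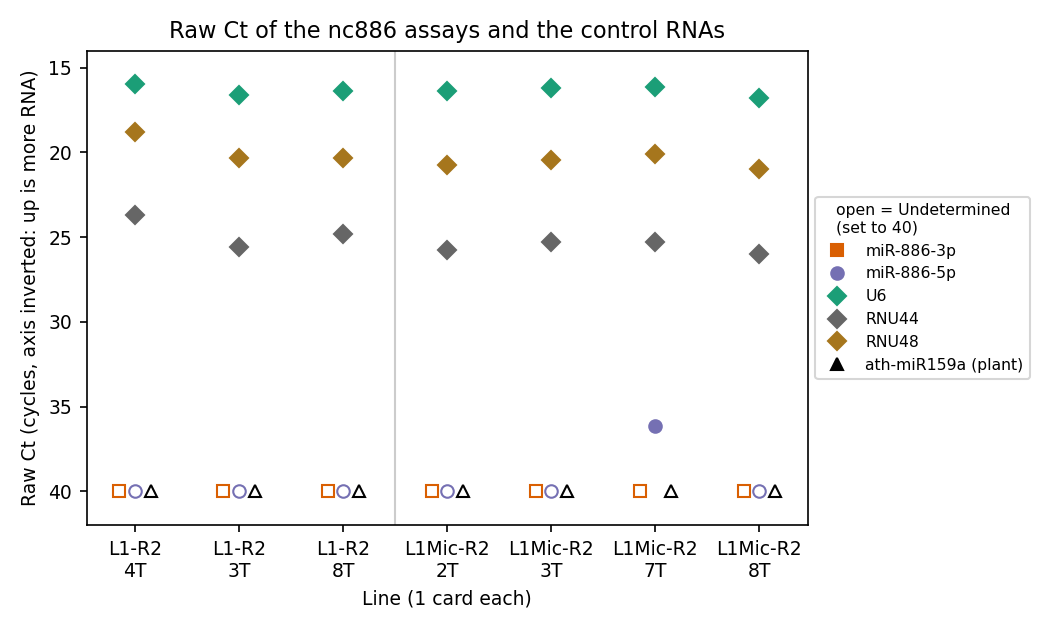
Raw Ct in cycles for miR-886-3p, miR-886-5p, U6, RNU44, RNU48 and the plant microRNA ath-miR159a, by line, with the axis inverted. Each point is 1 card, and open symbols are Undetermined wells placed at 40. MiR-886-5p in L1Mic-R2 line 7T, at 36.12, is the only closed symbol among the nc886 assays.

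The files hold a further value for each well, which has no header. On all 7 cards it was above the threshold of 0.3 in every assay with a Ct (1296 values, lowest 0.302) and below it in every Undetermined assay (1371 values, highest 0.299), and it is read here as the fluorescence over baseline at the end of the run. For miR-886-3p it was -0.000878 (4T), 0.0370 (3T) and 0.0215 (8T) for L1-R2, against -0.00609 (2T), 0.0281 (3T), -0.00254 (7T) and 0.00852 (8T) for L1Mic-R2. For miR-886-5p it was 0.0202, 0.00841 and -0.0120 for L1-R2, against -0.00839, 0.0169, 0.967 and 0.00483 for L1Mic-R2, with the lines in the same order. The 13 Undetermined wells thus lay between -0.0120 and 0.0370, with a median of 0.00841, and the well with the Ct stood apart from them. Undetermined assays as a whole had a median of 0.0268, and 36.2% of them exceeded the highest of the 13 wells. The plant control ath-miR159a ranged from 0.0230 to 0.0865. No Undetermined nc886 well was therefore close to the threshold.

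**Figure D2:**
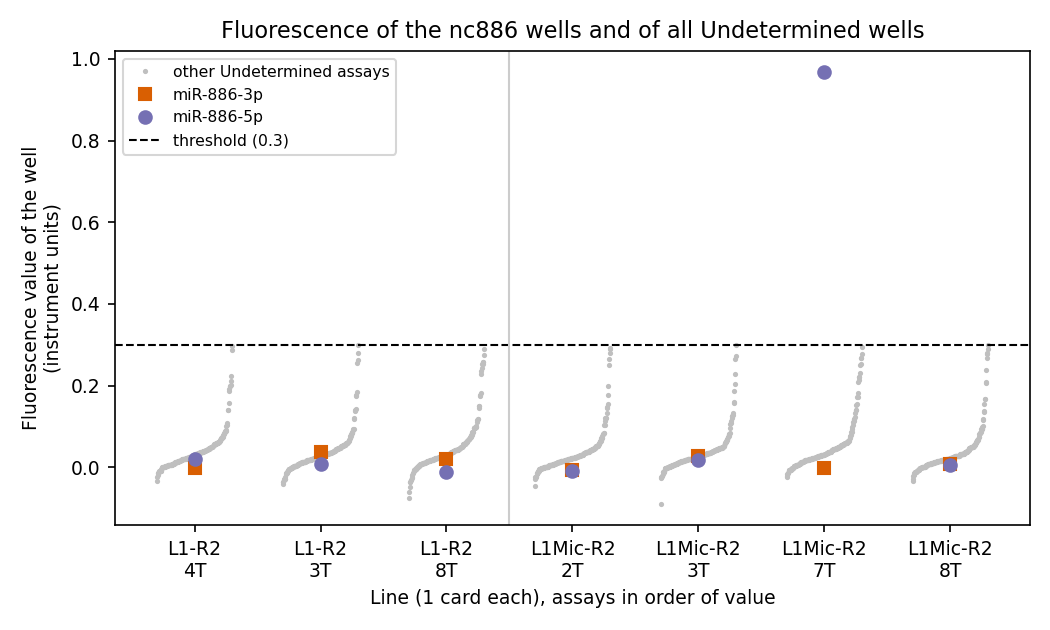
Fluorescence value of the miR-886-3p and miR-886-5p wells (instrument units) by line, over all other Undetermined assays of the same card in order of value (gray), with the threshold of 0.3 dashed. The 13 Undetermined nc886 wells lie between -0.0120 and 0.0370, and miR-886-5p in L1Mic-R2 line 7T is at 0.967.

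The single miR-886-5p reading was set beside other wells with a similar Ct. On the 7 cards there were 87 other microRNA wells within 0.5 cycles of 36.12, with a fluorescence from 0.468 to 1.81 and a median of 0.945. The value of miR-886-5p, 0.967, was higher than 48 of them. The assays of these 87 wells were often missed elsewhere, with 43.4% of their 219 readings in the other lines of the same group Undetermined. In 5 of the 87 wells, or 5.75%, the assay was Undetermined on all 6 other cards, as miR-886-5p was.

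**Figure D3:**
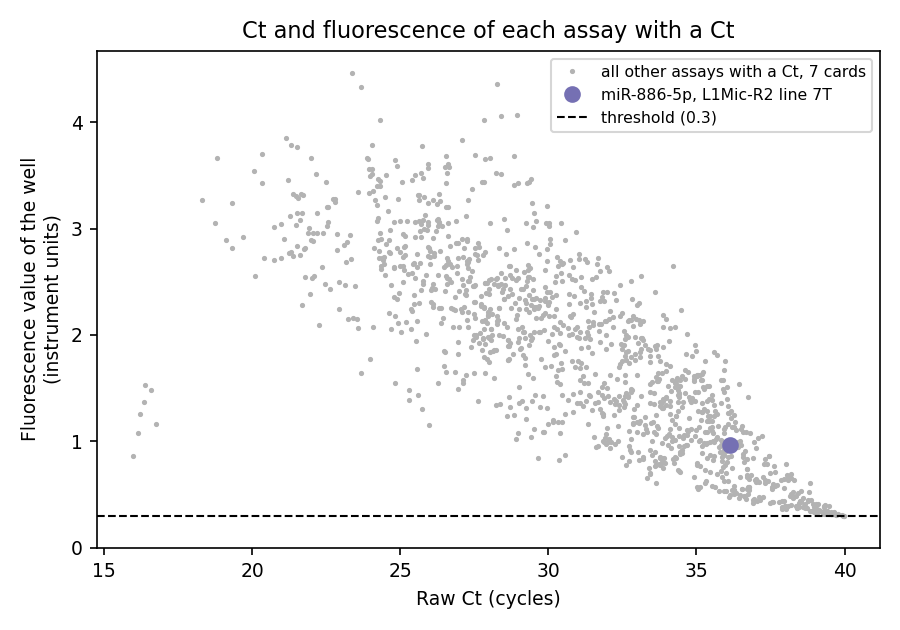
Raw Ct in cycles against the fluorescence value of the well (instrument units) for every assay with a Ct on the 7 cards, with the threshold of 0.3 dashed (U6 as the mean of its 4 wells). MiR-886-5p in L1Mic-R2 line 7T, at 36.12 and 0.967, lies among the other assays of similar Ct.

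MiR-886-5p was 1 of 30 microRNAs, 7.96% of 377, with a Ct in exactly 1 line. Their Ct ran from 33.42 to 39.99 with a median of 37.39, and miR-886-5p had the sixth lowest. Line 7T held 7 of the 30, against 2 to 6 in each of the other lines. Of the 20 with a Ct below 38 it held 4, against 6 in L1-R2 line 8T and 5 in L1-R2 line 4T. The others in line 7T, named after their values were seen, were miR-147b at 35.83, miR-561 at 36.40, miR-525-3p at 36.72, miR-890 at 39.59, miR-33b at 39.96 and miR-548b-5p at 39.99. Line 7T was not the line with the most microRNAs read, with 183 against 197 in L1-R2 line 4T.

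**Figure D4:**
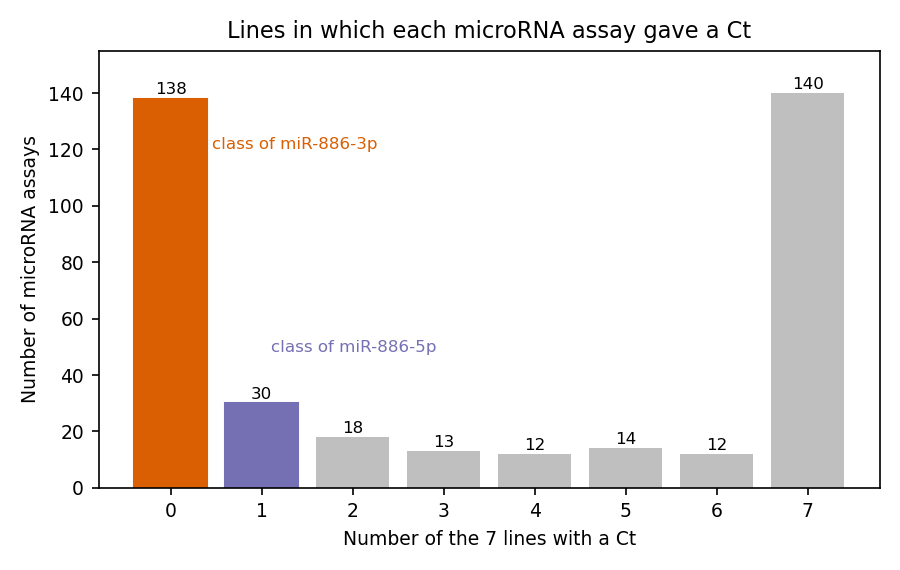
Number of microRNA assays, of 377, by the number of the 7 lines in which they gave a Ct. MiR-886-3p belongs to the 138 with a Ct in no line, and miR-886-5p to the 30 with a Ct in 1 line, while 140 gave a Ct in all 7.

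The design compares oligometastatic with polymetastatic lines. MicroRNAs entered the fit across the card, with limma on 40 minus the quantile normalized Ct, when their raw Ct was below 38 in at least 3 lines. This held for 181 of 377 microRNAs (48%) and for neither nc886 assay, so that neither was tested there. In that fit 9 of the 181, or 4.97%, passed an adjusted p under 0.05, and 35, or 19.3%, had an unadjusted p under 0.05. For miR-886-5p the normalized Ct was 40 in all 3 L1-R2 lines and 39.17 ± 1.67 (SD, n = 4) in L1Mic-R2, where line 7T was at 36.67. With Undetermined wells held at 40, the difference of L1Mic-R2 over L1-R2 on the log2 scale was 0.83, and was 0 without line 7T. It was smaller than the SD of L1Mic-R2, as it must be for any Ct when only line 7T departs from 40. The difference could not be tested, because 6 of the 7 values are tied. With these values an exact permutation test (two-sided) cannot give a p below 0.429, and it gives p = 1 wherever the single Ct falls among the 4 L1Mic-R2 lines. The lines with a Ct were 0 of 3 in L1-R2, with an exact 95% upper limit of 70.8%, and 1 of 4 in L1Mic-R2, with an exact 95% interval from 0.631% to 80.6%. When all 377 microRNAs were fitted, the log2 fold change of 0.83 had a standard error of 0.96 and an adjusted p = 0.989 from limma. This p rests on the same 6 tied values, and the fit also took in the 138 microRNAs with a Ct on no card. It therefore does not test miR-886-5p. In that fit 0% of the microRNAs passed the adjusted threshold, 36 had an unadjusted p under 0.05, and 19 passed with trend and robust options. For miR-886-3p the difference was 0, since every value was 40, and there was nothing to test.

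The ends of the nc886 RNA were also compared with other RNAs measured at both ends. The card held a 5p and a 3p assay for 48 hairpins, counting nc886. Both ends were Undetermined in all 7 lines for 11 of them, and both gave a Ct in all 7 lines for 11. For 19, nc886 among them, 1 end gave no Ct and the other gave at least 1. In 6 of these the other end was read in all 7 lines, whereas for nc886 it was read in 1. Because the 3p assay did not vary, a correlation between the ends of nc886 could not be computed. Within a card the difference in Ct between the assays could be bounded only in L1Mic-R2 line 7T, where the 5p assay came at least 3.88 cycles earlier.

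Of the 7 microRNAs listed for the long arm of chromosome 5, the arm that holds VTRNA2-1, 5 were on the card. MiR-874, miR-143 and miR-145 were Undetermined in all 7 lines, as was miR-886-3p. The same held for 138 of all 377 microRNAs, or 36.6%. Below 38 in all 7 lines were 135 of the 377. Among them were miR-146a, a feedback inhibitor of NF-kB signaling, and miR-340, at 18.32 to 20.10 and 29.25 to 30.01 cycles. Of the 2 that were tested, 0 passed and 0 had an unadjusted p under 0.05 (19.3% of all 181 did), with a lowest adjusted p of 0.595 from limma and a median log2 fold change of 0.11, against 0.06 over all 181. PKR is known to activate NF-kB, and the 3 microRNAs listed as induced by NF-kB, miR-146a, miR-146b-5p and miR-155, were below 38 in every line. Of these 0 passed the adjusted threshold either, with the lowest adjusted p from limma at 0.0953 for miR-146b-5p, the 1 of the 3 with an unadjusted p under 0.05, against 19.3% of all 181. The median log2 fold change of the 3 was 0, which is the value of miR-146a, against 0.06 over all 181. The values of single members were added after they were seen. MiR-146b-5p had a mean raw Ct of 26.97 ± 0.22 (SD, n = 3) for L1-R2 against 28.29 ± 0.73 (SD, n = 4) for L1Mic-R2. After quantile normalization its log2 fold change was -1.14 (standard error 0.31), while that of miR-155 was 0.56 (standard error 0.27) and that of miR-146a was 0 (standard error 0.12). The 0 of miR-146a was set by the normalization, which gives an assay of the same rank on every card the same value. It is therefore no measured lack of change. The groups of miR-146b-5p did not overlap in raw Ct, and neither did those of miR-146a, with means of 18.72 (L1-R2) and 19.61 (L1Mic-R2). Those of miR-155 overlapped. Mean raw Ct of the controls also rose from L1-R2 to L1Mic-R2, for RNU44 from 24.69 to 25.58 and for RNU48 from 19.83 to 20.55. For U6 the means were 16.32 and 16.38. Raw Ct is not scaled to any reference, so the gap of miR-146a alone does not show a change in its RNA. Of 10 further names later withdrawn as pieces of other noncoding RNAs, 0 were on the card.

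Among the 135 microRNAs below 38 in all 7 lines, the normalized Ct most like that of miR-886-5p over the lines was that of miR-130a (Pearson r = 0.855), miR-125a-3p (r = 0.838) and miR-628-5p (r = 0.812). All had their lowest normalized Ct in line 7T, for miR-130a 32.55 against 33.73 to 35.25 in the other 6 lines. These coefficients describe 7 lines in which 6 of the miR-886-5p values are the same, so that they rest on line 7T, and the assays share the card. Over all 135 microRNAs r ran from -0.879 to 0.855, with a median of -0.0147. The order depended on the measure. On raw Ct the coefficients were 0.891, 0.613 and 0.695, which ranked 1, 8 and 4 of 135, and Spearman's rho was 0.612, 0.618 and 0.618, with miR-130a at rank 9. For miR-886-3p no such order could be computed.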

How the data were processed

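Total RNA was extracted with TRIzol, reverse transcribed with Megaplex primers and run on TaqMan Human MicroRNA Array A cards v2.0, 1 per line. The authors imported the cards with SDS RQ Manager and deposited, per well, Ct values in cycles, which are on a log2 scale. The deposited files also hold, with no header, a fluorescence score per well and the baseline and threshold scores. Undetermined wells have a deposited Ct of 40. For U6, with 4 wells per card, the average in the files was taken. The labels gave each line its group and number, although the file names exchange numbers 3T and 4T of L1-R2. The labels mention mammary injection and SYBR dye, and the paper's tail vein injection and TaqMan assays were followed.

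Ct of 381 assays was quantile normalized over the 7 cards and compared with limma 3.58.1 (R 4.3.3), with Benjamini-Hochberg adjustment over all microRNAs tested, and single values with exact permutation tests. The functions were tested on simulated data. The fit named for both assays could not include them, since neither passed the detection filter, and the permutation test that remained could not pass with a single Ct. A p-value covers the spread between lines and the error of the card together. Named microRNAs were both members, the controls, the 3 most alike over the lines, and members of 3 lists. The members, lists and alternatives were chosen with earlier results of these data known. Same-numbered lines (3T and 8T) came from distinct mice, with correlations of their deviations of -0.044 and -0.197, so that the numbers were not taken as a pairing. Alternatives were other normalizations, limits on Ct, filters, fits with the line number as a block, and leaving out each line.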

Additional observations from a re-analysis of the deposited data

Results flagged for a closer look

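For miR-886-5p, line 7T of L1Mic-R2 was far from the other 3 lines of its group by Dixon's test at 95%, in raw Ct (36.12), in normalized Ct (36.67) and in fluorescence (0.967). Since no other line of the group gave a Ct, and every well with a Ct lies above the fluorescence threshold, any Ct at all would have passed in these 3 measures, which are readings of a single well. Dixon's test was run on 8 sets of values, where chance alone passes about 0.4, and this count carries no weight for the 3. The cause was not tested.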

How the results depend on the processing

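The difference of miR-886-5p between the groups, 0.83 on the log2 scale, was positive or 0 under every alternative run. Since it rests on a single Ct, permutation tests on raw or quantile normalized values could not pass, and say nothing about stability. Scaled to control RNAs or to microRNAs present in every line, the permutation p was 0.143 to 0.514 (exact two-sided). There the Undetermined values differ only by the subtracted reference. The same test gave miR-886-3p, where nothing but the reference varies, a p of 0.171 to 0.771. These p-values therefore do not test miR-886-5p apart from the reference. The difference was 0 when Ct was limited to 35. With a replicate block it was 0, and 0 again when the block used file-name numbers, since line 7T has no same-numbered partner. Leaving out each line in turn gave values from 0 (without line 7T) to 1.19. A limit of 38 on Ct gave 0.34. Raw Ct gave 0.97, and scaling to U6 1.02 or to RNU44 plus RNU48 1.77, where the rise over raw Ct is the shift of the reference, as given next for miR-886-3p. The difference of miR-886-3p, 0, was also 0 without each line in turn. It became 0.056 when scaled to U6, 0.80 when scaled to RNU44 plus RNU48, and 0.23 when scaled to microRNAs present in every line, values that hold only the subtracted reference because every well was Undetermined. The Ct of miR-886-5p minus that of miR-886-3p was bounded in line 7T alone. With all Undetermined wells at 40 its group means differ by -0.97, or by -1.29 to 0 when each line was left out (0 without line 7T), which is that bound averaged over the group and no measured difference. The fit with trend and robust options and no detection filter was chosen after seeing the data. It gave miR-886-5p an adjusted p = 0.953 from limma, against 0.989 without those options. Neither p tests miR-886-5p, since both rest on its single Ct. A stricter detection filter, and trend and robust options under the planned filter, were not run, since neither assay passes the planned filter. An Undetermined well cannot tell RNA below the limit of the run from no RNA.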
